A study of Arabidopsis thaliana with 12 samples.

Results

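This account covers the genes whose signal was higher at every doubling of nuclear DNA content in the root cortex of Arabidopsis thaliana. The members were chosen by measured values: among probe sets that stand for 1 gene, the mean of the class had to be at least 0.2 log2 units higher at each of the steps 2C to 4C, 4C to 8C and 8C to 16C, and the lowest 16C array had to lie above the highest 2C array. This rule gave 52 probe sets of 52 genes, out of 13513 single-gene probe sets, so a limit of 200 members was not reached. Because these values chose the members, the steps and the rise given below are descriptions of the set and not findings about it. The same rule with the sign turned gave 65 falling genes. A further 46 probe sets met the rule but have several genes or none in the probe table used here, and they are not described.

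The material was roots of Col-0 plants, 5 days old and grown in continuous light, that carried the reporter pCO2:YFP-H2B, a yellow fluorescent histone under the promoter of CO2, a gene used to mark the cortex. Nuclei from pooled root material were sorted by this fluorescence and by DNA content into the classes 2C, 4C, 8C and 16C, and the nuclear RNA of each class was amplified in 2 rounds for Affymetrix ATH1 arrays. Each class had 3 arrays, 12 in all. The labels call them biological replicates without naming plants or sorts, so the spread between arrays may be technical in part, and precision is limited by having 3 arrays a class. The class depends on where the promoter is active and on the gate of the sort, and every group carried the same reporter in the same ecotype.

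Plant cells that stop dividing often go on copying their DNA in the endocycle, in which replication is not followed by mitosis. In the root this goes with cell growth and differentiation, and larger DNA content is found in older and longer cortex cells. A 4C nucleus can be a dividing cell before mitosis or a cell in the endocycle, whereas 8C and 16C nuclei have passed through the endocycle. Signals are log2 values normalised so that all arrays have nearly the same distribution, and a higher signal therefore means a larger share of the nuclear RNA and not more transcript per nucleus. A level in one class cannot tell more RNA in each nucleus from more nuclei that hold the transcript.

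A pair of arrays was closer than any other: over all probe sets, replicates 1 and 2 of 16C had a correlation of 0.9963. Replicate 2 of 8C and replicate 3 of 16C came next at 0.9865, above any other pair within a class. With the close pair averaged as 1 array the rule gave 55 probe sets, 48 of them members. Of 3 cortex and ground tissue markers, 2 lay below the median of single-gene probe sets and 1 above it. The probe set of AT1G62500, the gene CO2 itself, averaged 4.03 ± 0.31, 4.25 ± 0.39, 4.02 ± 0.06 and 4.14 ± 0.10 across 2C, 4C, 8C and 16C (log2, SD, n = 3 each), below the median of 4.98 to 5.03 over single-gene probe sets in each class. JKD, a transcription factor of the ground tissue, averaged 5.51, 5.94, 6.34 and 5.70 in the same order, above that median in every class. AT1G09750, the third marker, averaged 4.86, 4.68, 4.32 and 4.24, below it. Of the epidermis and root hair markers, 4 of 16 were measured (EXPA7, EXPA18, GH9C1 and AT1G30870) and all 4 had an upward linear slope that passed the test described below, as did 9.85% of all probe sets. The class means of these markers were higher mainly in 16C: EXPA7 averaged 4.47, 4.40, 4.41 and 5.21, EXPA18 5.46, 5.39, 5.37 and 6.17, GH9C1 4.74, 4.83, 4.92 and 6.45, and AT1G30870 7.26, 6.36, 6.16 and 8.16. The 4 markers had a summed linear signal of 221 to 278 on the 2C arrays, 159 to 186 on those of 4C, 138 to 195 on those of 8C and 408 to 546 on those of 16C. Some of these markers had been picked in earlier results of these data. Of the other markers, the single endodermis marker measured did not rise, nor did any of the 3 cortex or 2 leaf markers. No stele or root cap marker was measured. The part of other cell types in the members' values was not tested.

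The 52 members were ordinary to bright probe sets. Averaged over the 12 arrays, their levels ran from 4.72 to 11.6 with a median of 7.13, against 5.03 for all single-gene probe sets, and 48 of the 52 lay above that median. Their median level was 6.19, 6.65, 7.65 and 8.21 across 2C, 4C, 8C and 16C. The difference of 16C minus 2C had a median of 1.85 log2 units and ran from 0.67, in AT1G26240, to 3.99, in AT1G51270. It was at least 2 log2 units in 19 members and at least 1 in 45. Among them 1 probe set, that of AT3G28530, is of a type that may also bind transcripts of related genes. Of the 51 members with a chromosome in the gene list of TAIR10.1, 23 (45.1%) lie on chromosome 1, against 25.8% of all single-gene probe sets placed there.

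**Figure D1:**
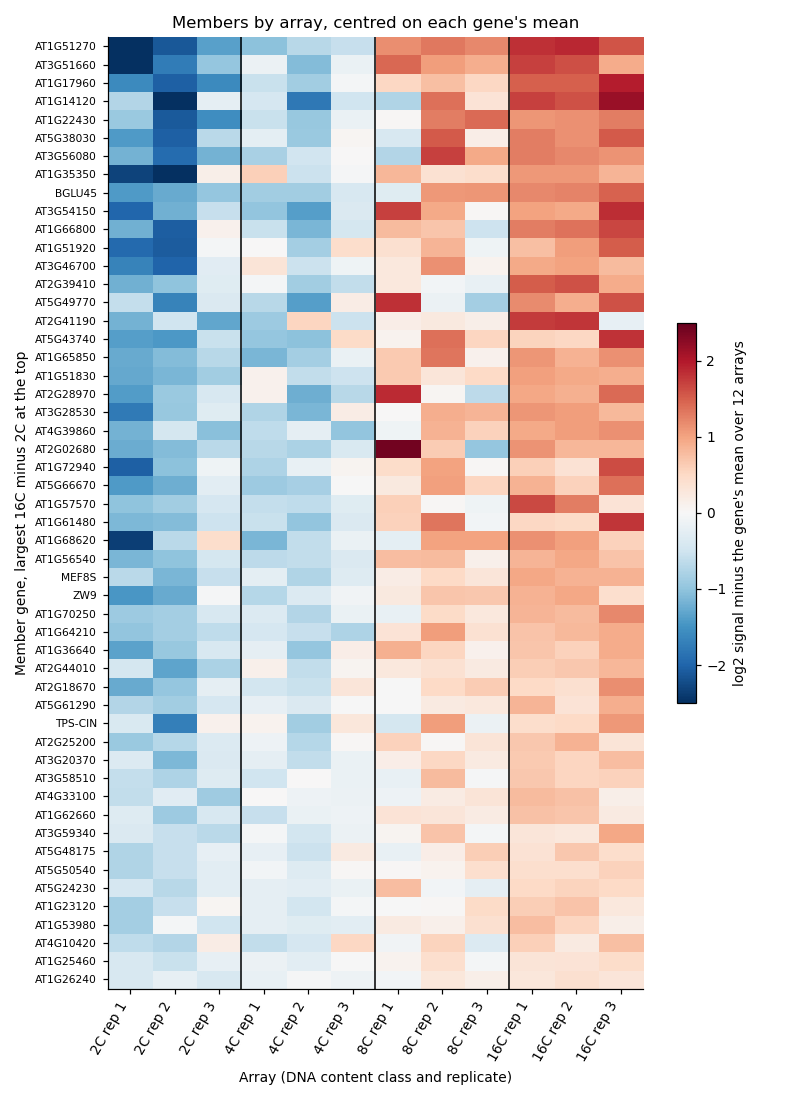
Signals of the 52 members (rows, largest 16C minus 2C at the top) on the 12 arrays (columns, in order of DNA content), as log2 signal minus the gene's own mean over 12 arrays. The colours turn mainly between the 4C and the 8C arrays, as those of an even rise centred on its own mean would too. Within 2C the third replicate is the highest for 40 members.

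The largest difference was that of AT1G51270. Its log2 signals in replicates 1, 2 and 3 were 5.31, 6.40 and 7.15 in 2C, 7.49, 7.82 and 7.93 in 4C, 9.67, 9.83 and 9.71 in 8C, and 10.34, 10.39 and 10.09 in 16C. No array of a class overlapped with the class before it, and the 2C arrays were the most spread (SD 0.92). The class mean was 10.27 in 16C against 6.29 in 2C, a 15.9-fold difference. A second probe set of this gene averaged 4.80, 5.05, 5.89 and 5.91 in 2C, 4C, 8C and 16C, with nearly no difference at the last step, and so did not meet the rule. AT1G70250 also has a second probe set, which stayed between 3.65 and 3.80 in the class means.

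The gene whose smallest step was the largest of all members was AT1G17960, which codes for a protein of the threonyl-tRNA synthetase family, enzymes that load transfer RNA for translation. Its log2 signals were 8.94, 8.49 and 8.94 in 2C, 9.97, 9.66 and 10.49 in 4C, 11.05, 11.29 and 11.05 in 8C, and 12.03, 12.03 and 12.49 in 16C. The steps were 1.25, 1.09 and 1.05 log2 units, so each doubling of DNA went with a signal about as much higher as the one before, and the classes did not overlap at any step. The difference of 16C over 2C was 10.5-fold.

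BGLU45 is a beta-glucosidase of a group known for releasing monolignols, the building blocks of lignin, from their glucosides. Its arrays read 7.37, 7.53 and 7.82 in 2C, 7.92, 7.93 and 8.39 in 4C, 8.48, 9.88 and 9.89 in 8C, and 10.00, 10.04 and 10.26 in 16C. The classes lay apart at each step, with 8C replicate 1 far below the other 8C arrays. AT1G51830, a receptor kinase with leucine-rich repeats, read 9.81, 9.95 and 10.23 in 2C, 11.20, 10.47 and 10.57 in 4C, 11.75, 11.39 and 11.58 in 8C, and 12.11, 12.04 and 11.99 in 16C. It was among the brightest members, and its 16C arrays were within 0.12 log2 units of each other.

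These 4 genes, AT1G51270, AT1G17960, BGLU45 and AT1G51830, were the only members whose arrays lay apart at all 3 steps, and they were also the only ones among the 13513 single-gene probe sets (0.0296%). Without replicate 2 of 4C the count of members was 8, but leaving out an array can only keep or raise this count. The same count over all single-gene probe sets was not made for that case. With all arrays, the members other than these 4 met the rule in their means while their arrays overlapped at 1 step or more. Of the 52, 19 overlapped at every step. Between neighbouring classes the arrays lay apart for 9 members in 4C above 2C (7.84% of all single-gene probe sets), for 23 in 8C above 4C (17.0%) and for 15 in 16C above 8C (9.61%). Across 2 doublings, 16C above 4C, they lay apart for 50 members (14.3%). The rule used the same arrays, and nothing is read from these counts beyond the overlap itself.

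**Figure D2:**
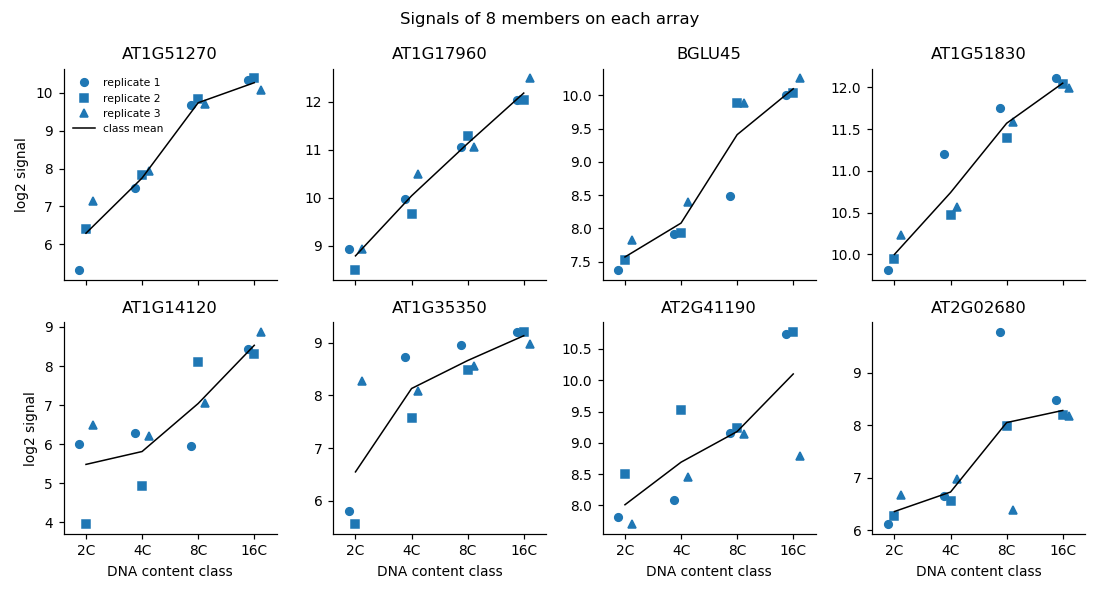
Log2 signals of 8 members on each array by DNA content class, with symbols for the replicates and a line through the class means. In the top row the classes do not overlap at any step, while in the bottom row single arrays lie in the range of a neighbouring class.

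Other large rises rested on more spread arrays. AT3G51660, of the family of macrophage migration inhibitory factor-like proteins, read 5.46, 7.22 and 8.00 in 2C and 10.68, 10.58 and 9.90 in 16C, and its last step was 0.29. AT1G14120, of the oxygenases that depend on 2-oxoglutarate and iron, read 5.99, 3.95 and 6.49 in 2C, 6.29, 4.92 and 6.22 in 4C, 5.96, 8.10 and 7.05 in 8C, and 8.43, 8.30 and 8.87 in 16C. Its 2C, 4C and 8C arrays overlapped, and only the 16C arrays stood clear of the rest. AT1G35350 had the opposite shape, with 5.81, 5.56 and 8.27 in 2C, 8.72, 7.57 and 8.09 in 4C, 8.95, 8.49 and 8.55 in 8C and 9.20, 9.20 and 8.97 in 16C, so that the third 2C array was already at the level of 4C. The widest spread in 16C was that of AT2G41190, where 16C replicate 3 read 8.79 and lay below all 3 of its 8C arrays, while replicates 1 and 2 read 10.74 and 10.77. The widest of all was that of AT2G02680 in 8C, with 9.77, 7.99 and 6.39 (SD 1.69).

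The steps were unequal. The median step was 0.36 log2 units in 4C over 2C (range 0.20 to 1.61), 0.78 in 8C over 4C (0.21 to 1.99) and 0.38 in 16C over 8C (0.21 to 1.5). The step at 4C to 8C was the largest in 31 members, the first step in 10 and the last step in 11. The median share of the members' whole rise that fell at 4C to 8C was 41.7%. The rule asked for at least 0.2 log2 units at the other steps too, which limits this share. Over all 13513 single-gene probe sets, many of which did not rise, the step at 4C to 8C was the largest in 5812. The falling genes had median steps of -0.39, -0.43 and -0.30 in the same order, with the largest fall at 4C to 8C in 29 of 65.

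**Figure D3:**
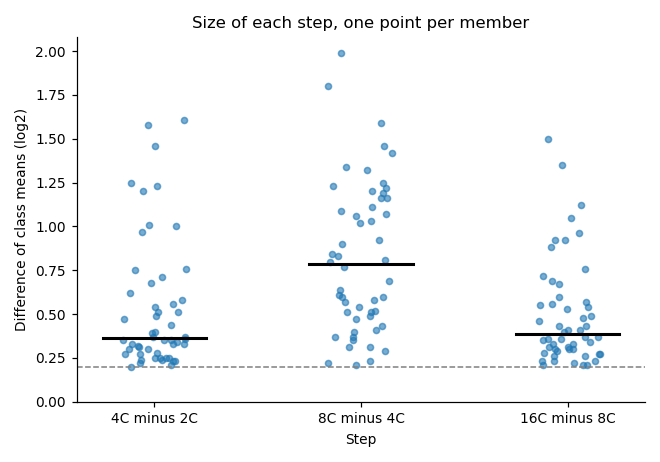
Difference of class means in log2 units at each step, 1 point per member, with the median as a bar and the smallest step allowed, 0.2, as a dashed line. The points at 8C minus 4C reach highest and have a median of 0.78, and those of the other steps crowd near the threshold.

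Among members whose largest step was the first, the highest values were those of AT3G51660 with 1.61, AT1G35350 with 1.58, AT1G17960 with 1.25 and AT1G51920 with 1.23. Among those whose largest step was the middle one, the highest were AT1G51270 with 1.99, AT3G54150 with 1.80 and AT1G22430 with 1.46. Among those whose largest step was the last were AT1G14120 with 1.5, AT2G39410, of the alpha/beta hydrolases, with 1.35 and AT1G66800, of the Rossmann-fold reductases, with 1.12. The members with the largest smallest step after AT1G17960 were AT5G38030 (0.81), AT3G56080 (0.56), AT1G51270 (0.54), AT1G51920 (0.52), BGLU45 (0.51), AT2G41190 (0.49) and AT1G51830 (0.48).

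Near the threshold, AT1G53980 was just inside with steps of 0.204, 0.514 and 0.233, ZW9 with 0.536, 0.920 and 0.206, and AT4G10420 with 0.225, 0.208 and 0.486. Just outside lay AT1G63350 with 0.297, 0.191 and 0.333, AT5G45840 with 0.190, 0.314 and 0.357, and AT3G57380 with 0.187, 1.598 and 0.245. The last of these was higher in 16C than in 2C by 2.03 log2 units, more than most members. Among the 78 single-gene probe sets that were higher by at least 2 log2 units, with every 16C array above every 2C array, 19 were members. Of those left out, 51 were short of 0.2 log2 units at 16C over 8C, 50 of them at that step alone, while 7 were short at the first step and 2 at the middle one.

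By what their proteins are known as, which is background knowledge of Arabidopsis gene families and was assigned after the values were seen, 14 members code for enzymes of small molecules, 6 for receptor-like kinases, 4 for intracellular resistance-type proteins, 4 for transporters, 4 for proteins of RNA, translation or protein turnover, and 6 for other known families. No description is given here for 14. The tables used here carry a symbol of their own for 4 members only (BGLU45, MEF8S, ZW9 and TPS-CIN), and otherwise the locus code.

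Receptor-like kinases sit in the plasma membrane and pass signals from outside the cell to the cytoplasm. In the 6 members of this kind 16C minus 2C was 1.64 to 2.10 log2 units. AT5G49770 read 5.52, 4.46 and 5.76 in 2C, 5.43, 4.74 and 6.30 in 4C, 7.94, 5.97 and 5.27 in 8C and 7.31, 7.03 and 7.72 in 16C, with 8C arrays that overlap both neighbouring classes. AT2G28970 read 5.89, 6.35 and 6.89 in 2C and 8.25, 8.18 and 8.70 in 16C, with 8C arrays between 6.63 and 9.15. AT1G64210 and AT1G61480, a lectin-type kinase, were dim in 2C, with means of 4.42 and 3.96, and averaged 6.07 and 5.79 in 16C. AT1G70250 had its largest step, 0.76, at the last doubling, and AT1G51830 is described above.

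AT1G51830 and AT2G28970 belong to subfamily I of the leucine-rich repeat kinases, which often stand in rows on the chromosome. Of 42 listed genes of this subfamily 32 were measured. Along the linear trend per doubling, 14 rose, 1 fell and 17 did not pass the test (limma over all 12 arrays, adjusted over all 22746 probe sets at 0.05). Over all probe sets 9.85% rose. The median slope was 0.12 log2 units per doubling in the list, against 0.02 in all single-gene probe sets. The 14 include AT1G51830 and AT2G28970, which the rule chose for rising. The list was also chosen with earlier results of these data known, so these values describe the list only. With each array's mean spike signal in the fit the count of 14 became 5, and with its actin difference 0. Over all 22746 probe sets the upward calls went from 2241 to 326 with the spikes and to 0 with the actin difference. Each kinase of the list that rose and is no member had at least 1 step under 0.2 log2 units. AT1G51820 averaged 5.38, 6.04, 8.79 and 8.52 in 2C, 4C, 8C and 16C, AT1G07560 averaged 8.38, 9.20, 10.9 and 10.8, and AT1G51860 averaged 7.23, 6.56, 6.62 and 8.84. AT2G28990, near AT2G28970, averaged 6.37, 5.98, 6.83 and 8.43. Genes of one row thus had their largest step at different doublings, although related sequences can also share signal on an array.

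Intracellular resistance-type proteins, with a nucleotide-binding domain, a TIR domain or both, are known for detecting pathogen effectors inside plant cells. The 4 members of this kind were higher by 1.70 to 2.08 log2 units, and in all 4 the largest step was that of 4C to 8C. AT1G65850 read 4.38, 4.56 and 4.95 in 2C, 4.51, 4.80 and 5.48 in 4C, 6.30, 6.98 and 5.75 in 8C and 6.74, 6.51 and 6.79 in 16C, with 4C and 8C apart. AT1G56540 averaged 5.15 ± 0.37, 5.48 ± 0.16, 6.59 ± 0.38 and 6.86 ± 0.12 across 2C, 4C, 8C and 16C (SD, n = 3 each), also with 4C and 8C apart. AT5G43740 and AT1G72940 each had 1 array of 16C well above the others, replicate 3 with 8.83 and 8.07.

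The enzymes of small molecules were the most numerous. The 14 genes were higher by 0.76 to 3.06 log2 units. AT1G22430, of the alcohol dehydrogenase family, read 7.39, 6.21 and 6.77 in 2C, 7.76, 7.37 and 8.16 in 4C, 8.35, 9.60 and 9.73 in 8C and 9.43, 9.47 and 9.59 in 16C, so that 8C and 16C overlapped. AT3G46700, of the UDP-glycosyltransferases, which attach sugars to small molecules, averaged 7.22, 8.43, 9.03 and 9.46 in order of DNA content. AT3G56080 and AT3G54150, of methyltransferase families, averaged 9.45 and 8.99 in 16C against 6.82 and 6.48 in 2C.

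TPS-CIN makes the monoterpene cineole and is known from roots. It read 5.38, 4.06 and 5.88 in 2C, 5.85, 4.89 and 6.05 in 4C, 5.32, 6.80 and 5.61 in 8C and 6.21, 6.27 and 6.84 in 16C, and its classes overlapped at every neighbouring step. AT1G62660, a vacuolar invertase, which splits sucrose, was bright throughout, with means of 11.06, 11.31, 11.89 and 12.14 in order of DNA content. AT1G68620, of the alpha/beta hydrolases, had 2C arrays between 6.36 and 9.15, and its lowest 16C array was only 0.14 log2 units above the highest of 2C. AT5G61290, of the flavin monooxygenases, AT5G24230, a lipase-like protein, and AT1G25460, of the Rossmann-fold reductases, had 16C means of 6.02, 5.91 and 5.13.

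The 4 transporters were AT5G38030, of the MATE efflux family, AT1G35350, of the PHO1 phosphate exporter family, AT2G41190, of the amino acid transporters, and AT3G59340. Their values of 16C minus 2C were 2.69, 2.58, 2.09 and 1.05 log2 units. AT5G38030 read 6.89, 6.27 and 7.64 in 2C, 8.07, 7.39 and 8.37 in 4C, 7.92, 9.85 and 8.48 in 8C and 9.59, 9.45 and 9.84 in 16C. Its steps of 1.01, 0.81 and 0.88 were nearly equal, but the 8C arrays spanned the range between 4C and 16C.

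Among the proteins of RNA and protein turnover, MEF8S, a pentatricopeptide protein related to an editing factor of mitochondrial RNA, read 8.42, 7.95 and 8.5 in 2C, 8.84, 8.33 and 8.77 in 4C, 9.26, 9.59 and 9.39 in 8C and 10.06, 9.95 and 9.95 in 16C. It was apart from 4C to 8C and from 8C to 16C. AT3G58510, of the DEAD-box RNA helicases, and AT2G18670, a RING-type protein, were higher in 16C by 1.16 and 1.5 log2 units. Of the other families, ZW9 and AT3G20370, both TRAF-like proteins, averaged 12.24 and 9.46 in 16C against 10.58 and 8.20 in 2C. AT1G57570, of the jacalin lectins, had 7.41, 7.03 and 6.10 in 16C. AT1G26240, an extensin-like wall protein, had the smallest rise of the set with 5.23 against 4.56, but small SDs of 0.06 in 16C and 0.12 in 2C. AT1G23120, of the Bet v I-like family, averaged 7.38 in 16C and 6.39 in 2C.

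The genes with no description here were AT1G51270, AT1G51920, AT3G28530, AT4G39860, AT2G02680, AT5G66670, AT1G36640, AT2G44010, AT2G25200, AT4G33100, AT5G48175, AT5G50540, AT1G53980 and AT4G10420. Apart from AT1G51270 they were higher by 0.92 to 2.47 log2 units. AT1G51920 read 5.28, 5.16 and 7.18 in 2C and 7.98, 8.28 and 8.75 in 16C. AT4G39860 was apart from 4C to 8C and from 8C to 16C, with a 16C mean of 8.02 ± 0.09 against 6.09 ± 0.38 in 2C.

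None of the lists of endocycle regulators, DNA replication, mitosis or expansins and xyloglucan enzymes held a member. Of the 3 endocycle regulators measured 0 rose and 0 fell, of 4 replication genes 3 fell, of 5 mitosis genes 2 fell, and of 11 expansins and xyloglucan enzymes 3 rose and 1 fell. Over all probe sets 11.7% fell and 9.85% rose. The replication genes ICU2, POLA3 and PRL, a helicase subunit, fell along the trend by 0.49 ± 0.09, 0.61 ± 0.10 and 0.96 ± 0.09 log2 units per doubling (SE), a slope of the opposite sign. The fall was not steady. In the same order 4C minus 2C was -1.07, -1.78 and -2.16, and 16C minus 8C was 0.03, 0.27 and 0.58.

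In the fit over all probe sets the slope was called upward for 50 of the 52 members, and for 9.85% of all probe sets. The exceptions were TPS-CIN (0.43 ± 0.16 log2 units per doubling, SE) and AT4G10420 (0.30 ± 0.11). Single steps were rarely called in the members: AT1G17960 alone in 4C over 2C (0.352% of all probe sets were called higher), 11 members in 8C over 4C (4.73%) and 0 in 16C over 8C (0.207%). At that last step limma gave 8 members an unadjusted p below 0.05. The share of all probe sets under this unadjusted threshold was not counted, so the 8 has no background beside it. The 11 were AT1G51270, AT1G17960, AT1G22430, BGLU45, AT3G54150, AT1G65850, AT1G51830, AT4G39860, AT1G56540, MEF8S and AT1G64210. The values that chose the members also enter these tests, so the counts describe the set. The count for 8C over 4C was 4 without replicate 1 of 4C and 5 without its replicate 2. Upward calls over all probe sets were then 283 and 505, against 1075 with all arrays. The count of members was 5 without replicate 2 of 8C, 7 without its replicate 3, 7 without replicate 1 of 16C and 7 without its replicate 2. Over all probe sets the calls were then 925, 688, 696 and 696. With the 2 close 16C arrays averaged 7 members were called, and 716 of all probe sets. In 4C over 2C, 5 members were called without replicate 3 of 2C, and 0 without replicate 2 of 2C, replicates 1 or 3 of 4C or any array of 8C or 16C. Upward calls over all probe sets at this step were 80 with all arrays and 162 without replicate 3 of 2C. They were 36 without replicate 2 of 2C, 23 and 25 without replicates 1 and 3 of 4C, and 31 to 68 without an array of 8C or 16C. With the actin 3' minus 5' difference of each array as a covariate, 0 members were called on the slope, as over all probe sets, and with the mean of the poly-A spikes as a covariate 10 were. With the actin covariate the median slope of the members was 0.68 log2 units per doubling with a median SE of 0.30, and with the spike covariate 0.43 with 0.16, against 0.66 with 0.10 without a covariate. The slope was above 0 in 52, 50 and 52 members in these fits.

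Arrays that had no part in the choice give a separate reading. The rule was applied to the 2 other replicates of each class, and the chosen probe sets were then read on the arrays of the remaining replicate number, although all arrays were normalised together. Of the probe sets so chosen, 25 of 60 were members for replicate 1, 30 of 58 for replicate 2 and 33 of 85 for replicate 3. These readings thus cover other genes too, and not every member. In replicate 1, all 60 probe sets chosen on replicates 2 and 3 were higher in 16C than in 2C, against 55.2% of all single-gene probe sets. In replicate 2 all 58 were, against 55.3%, and in replicate 3, 80 of 85 (94.1%), against 58.2%. The median difference of 16C minus 2C of the chosen probe sets was 1.58, 1.70 and 0.65 log2 units in replicates 1, 2 and 3, against 0.04, 0.04 and 0.06 over all.

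The single steps went upward in smaller shares of the chosen probe sets. The chosen probe sets were higher in 4C than in 2C in 71.7%, 72.4% and 69.4% of cases in replicates 1, 2 and 3, against 49.9%, 50.3% and 55.5% of all. They were higher in 8C than in 4C in 81.7%, 94.8% and 81.2%, against 55.9%, 57.8% and 53.3%. They were higher in 16C than in 8C in 58.3%, 51.7% and 51.8%, against 48.9%, 48% and 49.2%, with median differences of 0.27, 0.03 and 0.03 log2 units. All 3 steps went upward in 31.7%, 32.8% and 24.7% of the chosen probe sets, against 6.42%, 8.13% and 6.48% of all. At the last step these shares lay closest to those of all probe sets in replicates 1, 2 and 3. No test was made of these shares, since genes are not replicates, and 16C replicates 1 and 2, which were nearly alike, stood on both sides of the choice in replicates 1 and 2. So did the next closest pair, 8C replicate 2 and 16C replicate 3, in replicates 2 and 3. Arrays of 1 replicate number were read together here, although the numbers were not used as pairs in the fits.

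**Figure D4:**
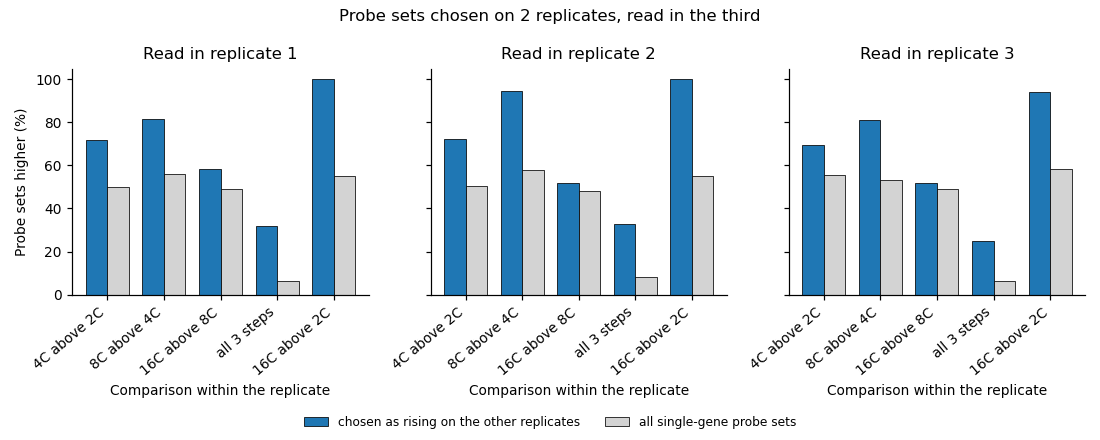
Percent of probe sets that were higher at each step in a replicate that did not take part in the choice, for those chosen as rising (blue) and for all single-gene probe sets (grey). The blue bars for 16C above 2C reach 94.1% or more, and those for 16C above 8C lie between 51.7% and 58.3%.

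Membership moved with single arrays. When each of the 12 arrays was left out in turn, between 44 and 71 probe sets met the rule, and between 34 and 50 of the 52 members did. The members that met it in all 12 cases were 8: AT1G51270, AT1G17960, AT5G38030, AT1G35350, BGLU45, AT3G46700, AT1G51830 and AT5G61290. At the other end, AT4G10420, AT1G25460 and AT1G26240 met it in 6 of 12.

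Within a class, the members did not scatter evenly over the replicates. The array of 2C replicate 3 was the highest 2C array for 40 of the 52 members, against 34.1% of all single-gene probe sets. That of 4C replicate 3 was the highest for 35, against 42.7% of all, that of 8C replicate 2 for 28, against 35.6%, and that of 16C replicate 3 for 28, against 45.5%. The lowest 2C array was replicate 1 for 27 members and replicate 2 for 21. The median of the members was 5.69, 6.07 and 6.68 in 2C replicates 1, 2 and 3, 6.65, 6.37 and 7.00 in 4C, 7.58, 7.92 and 7.23 in 8C, and 8.14, 8.18 and 8.34 in 16C. The 4C and 2C arrays overlapped in this median, and the 8C and 16C arrays did not. The median SD among the arrays of a class was 0.44, 0.39, 0.40 and 0.23 in members, against 0.18, 0.17, 0.15 and 0.12 in all single-gene probe sets, in order of DNA content.

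Control measures differed between the arrays as well. The poly-A spikes, bacterial transcripts mixed into the RNA before labelling, averaged 10.59, 11.47 and 10.54 in 2C, 10.98, 10.68 and 9.86 in 4C, 8.58, 8.19 and 10.22 in 8C and 9.14, 9.20 and 8.47 in 16C. In every class the array with the lowest spikes was the one with the highest median of the members, and in 8C the array with the highest spikes had the lowest median. The actin 3' minus 5' difference was 4.70, 4.38 and 4.57 in 2C, 4.03, 3.83 and 3.85 in 4C, 3.37, 3.56 and 3.34 in 8C and 3.98, 3.75 and 3.66 in 16C, so unlike the members it was lowest in 8C. The GAPDH 3' minus 5' difference averaged 4.85, 5.2, 5.05 and 5.58 in order of DNA content. With the spikes or the actin difference as a covariate fewer members were called, with the median slopes and errors given above, and which of these measures, if any, acts on the members was not tested.

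**Figure D5:**
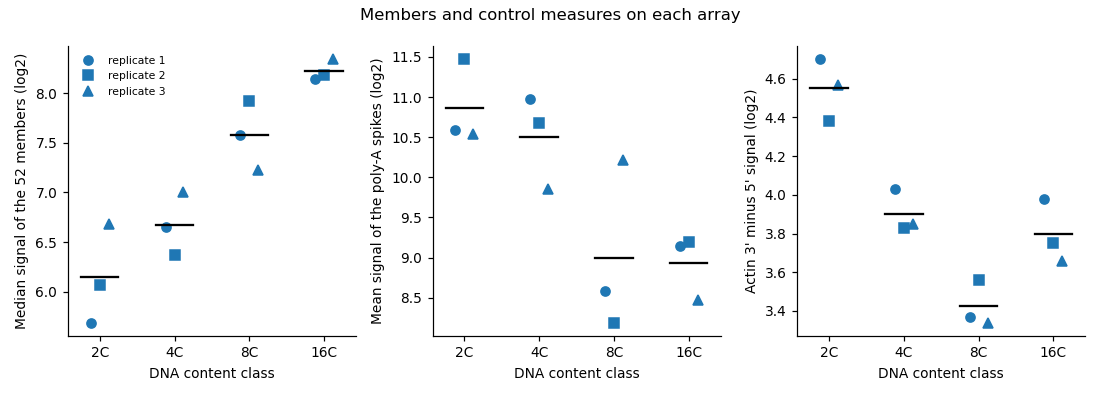
Median log2 signal of the 52 members, mean log2 signal of the poly-A spikes and actin 3' minus 5' log2 difference on each array, by DNA content class, with the class mean as a bar. The members' median is highest in 16C at 8.14 to 8.34, the spikes are lower in 16C than in 2C, and the actin difference is lowest in 8C.

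Within 5 protein-coding genes on either side, by the order of genes in TAIR10.1, none of the 51 members placed there had another member. Of 237 measured neighbours that were no members, 36 rose along the trend (15.2%, against 9.32% of single-gene probe sets) and 23 fell. With each array's mean spike signal in the fit the count of 36 became 2, and with its actin difference 0. Several of the 36 come from rows of related genes, which are not independent of each other. AT5G49770 lies between AT5G49760 and AT5G49780, receptor kinases of the same type, which averaged 9.87 and 5.03 in 2C, 10.98 and 5.71 in 4C, 11.95 and 8.51 in 8C and 11.87 and 8.15 in 16C. AT3G46690, beside AT3G46700 and also a glycosyltransferase, averaged 5.76, 7.02, 8.23 and 7.70. AT1G72950, beside AT1G72940, averaged 4.54, 4.64, 6.0 and 5.78. AT1G22440, beside AT1G22430, averaged 9.01, 9.78, 10.64 and 10.19. Each of these 5 neighbours was lower in 16C than in 8C in its class mean, by 0.08 to 0.53 log2 units, and so did not meet the rule. AT1G72950 was also short of it at the first step. Others among the 36 went the other way at the last step. In AT1G51850, AT1G51860, AT1G51890, AT2G28960 and AT2G28990, kinases of subfamily I, 16C minus 8C was 0.33, 2.22, 1.09, 0.84 and 1.60. They missed the rule at the first step, where each was lower in 4C than in 2C. AT1G51860 was also short of it at the middle step, with 0.06. In AT1G51820, of the same subfamily, 16C minus 8C was -0.27.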

How the data were processed

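Nuclear RNA was measured on Affymetrix ATH1 arrays. The authors deposited log2 signals per probe set, and the submitters' processing notes name RMA without version or settings. RMA makes the arrays alike in distribution (medians 5.22 to 5.36), so changes in total RNA per nucleus are not visible. The class of an array was taken from its title. The 64 control probe sets were kept out of the tests.

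The rule was applied to the 13513 single-gene probe sets, of which 13436 matched the TAIR10.1 gene table. Slopes and steps were fitted with limma 3.58.1 in R 4.3.3 over all 12 arrays without a block, adjusted by Benjamini-Hochberg over 22746 probe sets at 0.05; errors of slopes are moderated SEs. The fit was tested on simulated data. Deviations from the class means correlated above 0.1 in 9 of 18 same-numbered pairs. In replicates 2 and 3 the pairs among 2C, 4C and 16C gave 0.226 to 0.489 and those with 8C gave -0.487 to -0.164. As not every pair was above 0.1, numbers were not used as pairs.

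Members and lists were chosen with earlier results of these data known. Named were the 20 largest rises, the 8 with the largest smallest step, members in a list or with a symbol, the smallest rise, those at the threshold and the 4 most spread; the others were named after their values were seen. Lists were 6 of pathways and families (cysteine-rich receptor kinases, 0 measured), 6 of markers and 1 of reference genes. Planned searches of promoter and protein sequences were not run, as no sequence table was used here.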

Additional observations from a re-analysis of the deposited data

How the results depend on the processing

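The count of 52 probe sets was 61 after cyclic loess (48 members among them), 77 with each array shifted so that 8 reference genes had 1 mean (49), 55 with 16C replicates 1 and 2 averaged (48), 50 without the dimmest 40% of probe sets and 51 without probe sets of a type that may bind related genes. It was 141 with steps of at least 0.1 and 26 with steps of at least 0.3, and 52 without the condition on single arrays. Leaving out each array in turn gave 44 to 71, and a median 16C minus 2C of 1.71 to 2.03 against 1.85. Members apart at each step were then 4 to 8 (8 without 4C replicate 2), a count that leaving out an array can only keep or raise. That count was 3 after cyclic loess or reference scaling. With an array left out, 45 to 52 members were called on the slope, 0 to 5 in 4C over 2C, 4 to 14 in 8C over 4C and 0 in 16C over 8C. Upward calls over all probe sets also moved, with 1325 to 2438 on the slope and 23 to 162 in 4C over 2C. They were 283 to 1599 in 8C over 4C and 6 to 72 in 16C over 8C. On the slope, 11 to 15 subfamily I kinases and 25 to 40 neighbours rose. The percent of probe sets chosen without replicate 1 that were higher at all 3 steps in it was 37.3 after cyclic loess, against 31.7, and that for replicates 2 and 3 was 30.9 and 20.5, against 32.8 and 24.7. With the replicate number as a block, fixed or random, 50 members were called on the slope, 1 in 4C over 2C, 11 in 8C over 4C and 0 in 16C over 8C, as without it, so this paired fit changed no count of called members. Array weights gave 17 members in 8C over 4C and 3 in 16C over 8C. Over all probe sets these weights raised the upward calls from 1075 to 1584 in 8C over 4C and from 47 to 421 in 16C over 8C. Averaging 16C replicates 1 and 2 gave 0 in 4C over 2C and 7 in 8C over 4C, and only the 6 arrays compared gave 0 in 4C over 2C. Over all probe sets the averaged fit gave 32 and 716 upward calls at these steps, and the fit of 6 arrays 0 in 4C over 2C. Chosen after seeing the data, the actin difference as a covariate gave 0 members on the slope, 0 in 4C over 2C and 0 in 8C over 4C, 0 subfamily I kinases and 0 neighbours. The mean of the poly-A spikes as a covariate gave 10 members on the slope, 0 in 8C over 4C, 5 subfamily I kinases and 2 neighbours. Over all probe sets the spike covariate gave 326 upward calls on the slope and 150 in 8C over 4C, and the actin covariate 0 in both. The covariates move with the classes, and the cause was not tested. Of 572 slopes of 26 named members under the alternatives, 496 kept their sign and side of the threshold, 73 kept their sign but no longer passed (45 of them with a covariate), 2 passed in addition, and that of TPS-CIN turned to -0.02 with the spikes as a covariate. With 3 arrays per class and no detection call, members near the dim end, such as AT1G61480 in 2C, cannot be told from background.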
